A study of Mus musculus with 2 samples.

Results

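Immediate early genes are transcribed within minutes of a stimulus without new protein synthesis, and stress response genes follow damage, heat or the loss of normal tissue contact. The 10 members described here are Fos, Fosb, Jun, Junb, Egr1, Atf3, Ier2, Ier3, Nr4a1 and Hspa1a, chosen by name, of 17809 genes in the wild-type colon library and 15972 in the Pdgfra-H2B-eGFP reporter library. All 10 were listed in both libraries. They were read across every cell group, and in reporter fibroblasts also by the level of Cxcl2, a neutrophil-attracting chemokine that is no member.

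Fos and Fosb encode partners of Jun and Junb in the AP-1 transcription factor, which binds DNA as a dimer. Egr1 is a zinc finger factor that growth factors induce through serum response factor and its cofactors, Atf3 is a factor of the CREB family induced by many stresses, and Nr4a1 is an orphan nuclear receptor. Ier2 and Ier3 are early response genes, and Ier3 also acts in cell survival. Hspa1a encodes the inducible heat shock protein Hsp70, which heat shock factor Hsf1 switches on when proteins misfold. In tissue these genes mark recent stimulation, and the enzymes and warmth used to free single cells are known to induce them.

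The wild-type library held colon cells of C57BL/6 mice, in which sorted EpCAM+ CD45- epithelial cells and EpCAM- CD45- cells had been mixed in equal parts (V3 kit). The reporter library held GFP+ mesenchymal cells of Pdgfra-H2B-eGFP mice, where the Pdgfra locus drives a nuclear GFP, so that cells without Pdgfra activity are mostly not sorted (V2 kit). Cells of 3 female mice aged 8 to 12 weeks were pooled in each library, with no map from cells to mice. Each group is therefore 1 sample, no test across mice was possible, and no p-value is given. SDs and interquartile ranges below describe the spread over cells of 1 library and not between mice.

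Values are corrected counts per cell, that is UMI counts that the authors adjusted to a common depth, so the depth sequenced is unknown here. Total corrected counts had a median of 8972 per cell in 7495 wild-type cells and 3150 in 4409 reporter cells. Both libraries were normalized apart and differ in mouse line, kit and sort, so only directions are set side by side. They shared 1 cell barcode. The epithelial fraction was freed in 30 min at room temperature followed by 5 min in TrypLE at 37 °C. The tissue left after the detachment was digested for 1 h at 37 °C with collagenase D and Dispase, which gave the mesenchymal fraction. Per the paper, sorted cells of both fractions entered the wild-type pool. Epithelium against stroma and the way of dissociation cannot be told apart here.

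Cells were clustered without the members and the related gene lists and named from marker lists, with the ending "-like". The wild-type library gave 2519 fibroblasts, which were 1115 CBFs1-like, 557 CBFs2-like (crypt-bottom fibroblasts) and 847 CTFs-like cells (crypt-top fibroblasts), and 2590 epithelial cells. It further held 949 smooth muscle-like, 594 blood endothelial-like, 118 pericyte-like, 113 lymphatic endothelial-like, 78 glia-like and 40 immune-like cells, with 3 clusters of 373, 101 and 20 cells left unnamed. The reporter library gave 4244 fibroblasts, of which 1542 were CBFs1-like and 854 CBFs2-like. Its cluster 4, with 525 cells, scored highest on the CTF list (10 of 12 markers), but Tagln, Acta2 and Myl9 of the smooth muscle list stood among its leading 10 genes beside Bmp3 and Sox6, so it is called cluster 4. The mean of Acta2 was 5.51 there, against 0.130 for Myh11 and 0.0171 for Cnn1. The paper describes Acta2 expression in its CTFs and reports no smooth muscle cells among its reporter clusters. Clusters 2 and 3 of the reporter, led by Agt (753 cells) and Spock3 (570 cells), passed the general fibroblast markers but matched too few markers of any subtype list to be named. The CBFs1-like name in the reporter library is weak, with 4 of 11 markers passed and a mean log2 fold of 0.790 over the list. The Spock3 cluster passed 3 of 11 markers of the same list, with a higher mean log2 fold of 1.04.

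On GRCm38 in the GENCODE annotation, Fos lies on chromosome 12 (85473890 to 85477273, plus strand) with up to 4 exons, and Fosb on chromosome 7 (19302696 to 19310051, minus strand) with up to 5. Jun on chromosome 4 (95049034 to 95052222), Junb on chromosome 8 (84974484 to 84978718) and Ier2 on the same chromosome (84661331 to 84662852) each consist of 1 exon on the minus strand. Egr1 lies on chromosome 18 (34859823 to 34864984, plus strand), and Atf3 on chromosome 1 (191170296 to 191218039, minus strand). Nr4a1 lies on chromosome 15 (101254269 to 101274795, plus strand). Ier3 (35821684 to 35822923, plus strand) and the 1-exon Hspa1a (34969190 to 34972156, minus strand) both lie on chromosome 17. Hspa1a has a near-identical neighbour, Hspa1b, from 34956436 to 34959238. Of the 2878 windows of 90 bases in the Hspa1a transcript 49.3% also occurred in Hspa1b, but none of those in its last 500 bases, where a 3′ library reads.

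Together the 10 members held 1.03% of all corrected counts in wild-type fibroblasts, 0.612% in wild-type epithelial cells and 1.80% in reporter fibroblasts. The median wild-type fibroblast had 9 of the 10 above 0 and a summed corrected count of 79, with 24 at the 10th and 171 at the 90th percentile. All 10 were above 0 in 657 wild-type fibroblasts (26.1%), in 333 epithelial cells (12.9%) and in 101 of 118 pericyte-like cells (85.6%). Only 31 wild-type fibroblasts (1.23%) had 3 or fewer. Reporter fibroblasts had a median of 8 members above 0, and 638 of them (15%) had all 10. A corrected value above 0 need not match a molecule read, and in wild-type fibroblasts of the middle tertile by genes per cell the share was 15.9%.

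Promoters of 6 members are shown because fast induction of these genes is known to act through short motifs near the start. Hspa1a is included for its lower mean in CBFs2-like than in CBFs1-like cells, where the means of Fos, Fosb and Nr4a1 were higher. The means of Jun and Junb went opposite ways in the libraries, and that of Hspa1b was not lower in the wild-type library. Whether motifs and levels go together was not tested for the promoters shown. Each runs 5′ to 3′ over the 150 bases before the transcription start on the strand of the gene, from RefSeq on GRCm38.p6, with capitals for the cAMP response core TGACG (or CGTCA, its reverse complement), the heat shock element GAANNTTC and the TATA box TATAAA:
Fos (chr12:85473740-85473889, plus strand): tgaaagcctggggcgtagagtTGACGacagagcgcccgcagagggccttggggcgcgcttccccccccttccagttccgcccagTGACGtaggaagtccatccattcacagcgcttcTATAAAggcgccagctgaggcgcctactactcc
Fosb (chr7:19310046-19310195, minus strand): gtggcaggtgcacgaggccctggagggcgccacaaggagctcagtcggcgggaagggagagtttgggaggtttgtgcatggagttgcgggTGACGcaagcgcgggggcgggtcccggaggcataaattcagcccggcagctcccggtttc
Junb (chr8:84978749-84978898, minus strand): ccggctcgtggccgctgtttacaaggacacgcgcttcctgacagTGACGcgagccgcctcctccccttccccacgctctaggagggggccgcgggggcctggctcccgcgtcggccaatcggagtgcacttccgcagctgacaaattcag
Nr4a1 (chr15:101266696-101266845, plus strand): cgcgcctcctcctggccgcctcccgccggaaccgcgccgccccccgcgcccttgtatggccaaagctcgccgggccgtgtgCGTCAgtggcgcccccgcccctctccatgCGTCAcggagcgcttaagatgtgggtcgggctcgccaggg
Jun (chr4:95052223-95052372, minus strand): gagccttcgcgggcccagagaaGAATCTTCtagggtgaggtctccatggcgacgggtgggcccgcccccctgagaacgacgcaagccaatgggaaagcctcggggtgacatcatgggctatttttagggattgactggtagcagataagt
Hspa1a (chr17:34972157-34972306, minus strand): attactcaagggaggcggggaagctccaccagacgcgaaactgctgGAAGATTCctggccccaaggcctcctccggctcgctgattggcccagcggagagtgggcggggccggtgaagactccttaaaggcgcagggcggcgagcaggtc

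The search covered 250 bases before and 50 after the start, on both strands, in the 8 members that the table holds. TGACG, a motif added after the first search, occurred in 5 of them (Fos, Fosb, Junb, Atf3 and Nr4a1), against 20.8% of all 32851 promoters. Nr4a1 held it at 4 positions and Fos at 2 (-129 to -125 and -66 to -62 from the start). GAANNTTC, which holds the paired core of the site Hsf1 binds, occurred in Jun (-128 to -121) and Hspa1a (-104 to -97), against 7.86% of promoters, and in Hspa1b at the same place as in Hspa1a. TATAAA occurred in Fos (-33 to -28) and in Junb (1 to 6 after the start), against 13.6%. Positions count from the RefSeq start, which for Fosb, Junb, Atf3 and Nr4a1 differs from the outer start of the GENCODE gene. For Junb the GENCODE start (84978718) lies further downstream, so this match lies before it. The full cAMP response element TGACGTCA (1.79% of promoters), the AP-1 site TGANTCA (7.81%) and the CArG box, the serum response factor site (1.63%), had no exact match in these windows. TGACG is part of TGACGTCA. A match is a match of letters only.

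Among the 14 named wild-type cell classes, 8 of the 10 members were highest in pericyte-like or glia-like cells. Pericytes wrap small vessels and enteric glia support the neurons of the gut wall. Fos averaged 59.2 ± 38.4 in glia-like cells (SD over cells), 38.3 ± 31.9 in pericyte-like cells, 29.6 ± 26.5 in smooth muscle-like cells and 7.84 ± 7.27 in colonocyte-like cells, the lowest class. The interquartile range of glia-like cells ran from 36.3 to 74.3 and that of colonocyte-like cells from 2 to 12, so the ends of the order were apart. Fosb averaged 14.9 ± 11.2 in pericyte-like and 11.3 ± 10.8 in glia-like cells, then 9.43 ± 11.3 in enteroendocrine-like cells, and 2.07 ± 2.24 in colonocyte-like cells.

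The Jun partners had a similar top. Jun averaged 28.2 ± 22.5 in glia-like and 28.0 ± 24.2 in pericyte-like cells, and was lowest in the 40 immune-like cells at 5.35 ± 7.93. Junb averaged 52.6 ± 33.3 in pericyte-like cells, 35.2 ± 22.2 in glia-like cells, 31.9 ± 23.6 in blood endothelial-like cells and 27.5 ± 27.9 in immune-like cells. Immune-like cells were thus among the highest for Junb and the lowest for Jun and Egr1. Egr1 averaged 35.2 ± 25.8 in glia-like and 33.6 ± 24.3 in pericyte-like cells, and 1.95 ± 3.31 in immune-like cells.

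Atf3 had another order, with epithelium above fibroblasts. Its mean was 15 ± 16.9 in glia-like cells, 13.4 ± 12.3 in pericyte-like cells and 10.8 ± 13.5 in enteroendocrine-like cells. Every epithelial class lay between 6.86 and 10.8, whereas fibroblasts had 0.769 ± 1.43 in the CBFs1-like, 1.23 ± 2.06 in the CTFs-like and 3.35 ± 3.92 in the CBFs2-like class. Nr4a1 was highest in the 86 enteroendocrine-like cells, the hormone-secreting cells of the epithelium, at 6.24 ± 7.85, followed by pericyte-like cells at 5.74 ± 4.06. It was lowest in CBFs1-like cells at 0.848 ± 1.31 and colonocyte-like cells at 0.876 ± 1.63.

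Among the named classes Ier3 had its highest mean in blood endothelial-like cells but not in lymphatic endothelial-like cells, at 2.12 ± 3.03. The unnamed cluster led by Notch3, described below, had a still higher mean of Ier3. Ier3 averaged 12.7 ± 11.9 in blood endothelial-like cells and 8.08 ± 6.39 in pericyte-like cells, and stayed between 0.530 and 0.866 in the 5 epithelial classes. Ier2 spanned a narrower range, from 11.4 ± 9.83 in pericyte-like and 10.2 ± 9.22 in blood endothelial-like cells to 2.87 ± 3.58 in colonocyte-like cells. Hspa1a averaged 29.1 ± 35.8 in pericyte-like cells, 12.4 ± 16.1 in blood endothelial-like cells and 2.20 ± 3.75 in colonocyte-like cells. Its interquartile range in pericyte-like cells ran from 6.25 to 40.0, and a single cell reached 204. For each member, 0 of the 13 pairs of neighbours in its order had interquartile ranges that did not overlap, so neighbouring ranks did not differ beyond the spread over cells.

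**Figure D1:**
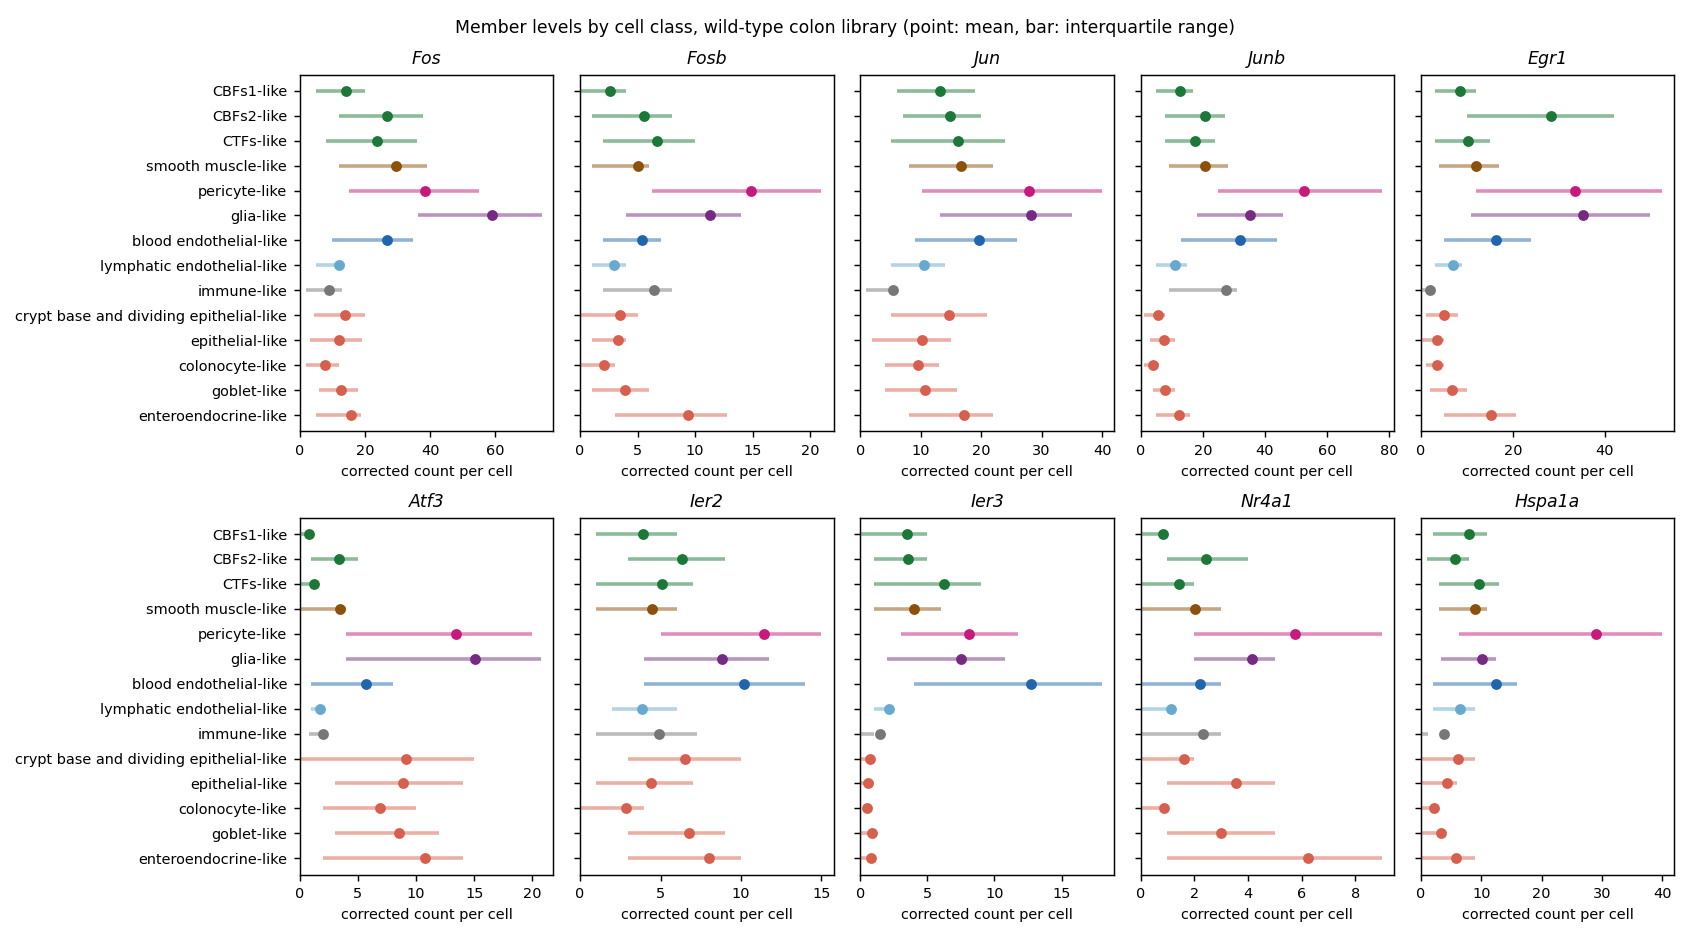
Mean corrected count per cell (points) and interquartile range over cells (bars) of each member in the 14 named classes of the wild-type library, each panel on its own linear axis in corrected counts. Pericyte-like or glia-like cells lead in 8 panels, Ier3 leads in blood endothelial-like cells at 12.7 and Nr4a1 in enteroendocrine-like cells at 6.24, while Atf3 is lowest in CBFs1-like cells at 0.769.

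Pericyte-like cells were set against all fibroblasts, a comparison added after the levels were seen. A log2 ratio of 1 or more on means with 0.01 added, that is 2-fold, was counted as higher, and a mean of at least 0.05 over both groups was required. All 10 members had higher means in pericyte-like cells and 7 were past 2-fold, against 9.99% of all 9485 genes (18.0% were past 2-fold lower). The log2 ratios were 3.16 for Atf3, 2.03 for Nr4a1, 1.86 for Hspa1a, 1.72 for Junb, 1.69 for Fosb, 1.31 for Egr1 and 1.24 for Ier2. Jun at 0.94, Fos at 0.92 and Ier3 at 0.87 stayed inside 2-fold.

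Related genes moved the same way in pericyte-like cells. Of the wider immediate early factors 17 of 31 were past 2-fold higher and 1 lower, with a median log2 ratio of 1.37 against -0.20 for all genes. Csrnp1 had a ratio of 2.35 and Btg1, an anti-proliferative gene, 2.26, whereas Ctgf, which encodes a matrix-associated signalling protein, had -2.75. Of the feedback genes, which switch the response off, 6 of 15 were higher, led by Rasd1 at 5.10 and the phosphatase gene Dusp2 at 3.36. Of the heat shock list 10 of 21 were higher and 2 lower, and the co-chaperone gene Dnajb1 had 2.12, Hsph1 2.33 and Hspb8 -3.45. Of the stress and damage list 10 of 18 were higher, among them the cell cycle inhibitor Cdkn1a at 2.70, Gadd45b at 2.60 and Ppp1r15a at 2.40. The inflammatory list was mixed, with 11 of 25 higher and 3 lower, and its ends were Cxcl1 at 3.88 and the prostaglandin synthase Ptgs2 at -5.62.

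Markers of other cells differed as well in this comparison. The 10 smooth muscle markers summed to 82.0 per pericyte-like cell and 9.95 per fibroblast. The 10 blood endothelial markers summed to 5.48 per pericyte-like cell and 1.95 per fibroblast, with none at 0, and the 5 erythrocyte genes to 22.2 and 10.8. Pericyte-like cells had a median of 2102 genes and 8.64% mitochondrial values, fibroblasts 2626 genes and 8.42%. The part of these differences in the member ratios was not tested. An unnamed cluster of 101 cells led by Notch3, with 9 of 10 pericyte markers but 3849 genes per cell, also had high means, of 46.5 for Junb, 31.4 for Egr1, 22.2 for Hspa1a and 14.4 for Ier3.

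Fibroblasts against epithelial cells of the wild-type library gave ratios in both directions. Of the 10 members 7 lay above 0 and 3 below, beside 3966 above and 7209 below of 11175 genes. Ier3 (4.43 ± 5.92 against 0.699 ± 1.51), Egr1 (13.5 ± 15.7 against 5.28 ± 5.74) and Junb (16.0 ± 13.1 against 6.27 ± 5.65) were past 2-fold higher in fibroblasts, with log2 ratios of 2.65, 1.35 and 1.35. Atf3 was past 2-fold lower (1.5 ± 2.60 against 8.36 ± 8.24), with a log2 ratio of -2.48. These 3 higher and 1 lower of 10 stand beside 16.8% higher and 32.6% lower of 11175 genes, and the member median of 0.61 beside -0.44 for all genes. The interquartile ranges overlapped for every member but Atf3, where they met at 2, running from 0 to 2 in fibroblasts and from 2 to 12 in epithelial cells.

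The other 6 members stayed inside 2-fold. Hspa1a (7.98 ± 8.63 against 3.99 ± 7.16) had a log2 ratio of 0.997, just inside the line, and passed it under 5 other settings. Fos had 0.78, Fosb 0.44, Jun 0.33, Ier2 -0.16 and Nr4a1 -0.69. Among the 4 AP-1 members, then, the ratio of Junb was furthest from 0 and that of Jun nearest. Fibroblasts and epithelial cells had medians of 2626 and 3204 genes and 8.42% and 9.21% mitochondrial values, and the 10 epithelial markers summed to 5.72 per fibroblast and 199 per epithelial cell.

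The wider lists also split. Of the immediate early factors 11 of 31 were higher in fibroblasts and 6 lower, with Ctgf at 5.92, Id3, an inhibitor of differentiation factors, at 3.03 and Cebpd at 2.84 on one side, and Fosl1, another Fos family gene, at -4.27, Arc at -2.64 and Klf6 at -2.18 on the other. The feedback genes gave 5 higher and 6 lower of 15, with Socs3 at 3.97 and Dusp5 at -2.80. The heat shock list gave 4 and 4 of 21, with the small heat shock genes Hspb8 at 5.19 and Cryab at 4.85 higher and the mitochondrial chaperone gene Hspd1 at -1.87 lower. The stress list gave 4 and 6 of 18, with Gadd45b at 3.40 and the metallothionein gene Mt1 at -1.96. The inflammatory list gave 14 and 6 of 25, from Ccl11 at 5.87 to Tnfaip3, a brake on NF-kB, at -2.82.

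CTFs-like against CBFs-like cells is the main stromal contrast of the study. In the wild-type library 0 of 10 members were past 2-fold in either direction, beside 4.90% higher and 6.38% lower of 9571 genes. With 10 members such a count is near these shares. The member median was 0.21, beside -0.05 for all genes. Fosb (6.65 ± 6.36 against 3.57 ± 4.66) had the highest log2 ratio at 0.90, followed by Ier3 at 0.82 (6.23 ± 8.10 against 3.52 ± 4.15), Hspa1a at 0.42 and Fos at 0.36. Egr1 (10.2 ± 9.48 against 15.1 ± 17.8) had -0.56 and Atf3 -0.40, and Jun, Junb, Ier2 and Nr4a1 lay between 0.06 and 0.23. All interquartile ranges overlapped. The 10 smooth muscle markers summed to 23.8 per CTFs-like and 2.93 per CBFs-like cell, with none at 0.

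In the reporter library cluster 4 took the place of CTFs-like cells. Hspa1a was past 2-fold higher there (13.6 ± 12.2 against 5.80 ± 6.12, log2 ratio 1.22), 1 of 10 members beside 9.41% of 6373 genes, and 0 of 10 were lower beside 4.99%. The median over all genes was 0.31 in this comparison, so ratios near it are not differences from the rest. Jun had 0.70 (11.5 ± 9.67 against 7.04 ± 6.64), Fos 0.65, Ier3 0.55, Junb 0.37, Fosb 0.16 and Ier2 0.03. Hspa1b had the opposite direction to Hspa1a in this contrast, with 1.22 ± 1.69 in cluster 4 and 1.61 ± 2.09 in CBFs-like cells. Below 0 lay Egr1 at -0.74 (3.80 ± 3.98 against 6.35 ± 5.85), Atf3 at -0.67 and Nr4a1 at -0.16. The 10 smooth muscle markers summed to 14.9 per cell of cluster 4 and 0.560 per CBFs-like cell, with none at 0, and their part in these ratios was not tested.

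Both libraries gave the same direction for 9 of the 10 members in this contrast, Nr4a1 being the exception at 0.06 and -0.16. Over all genes that entered in both, 67.6% of 6218 had the same direction. Taken against the median gene of each library instead of 0, 7 of the 10 members lay on the same side, beside 69.4% of all genes, as Fosb and Ier2 then also differed. Among the lists, the small heat shock gene Hspb1 was higher and Hspb8 lower in both libraries, with log2 ratios of 2.45 and -3.86 in the wild-type and 2.06 and -3.07 in the reporter library. The receptor tyrosine kinase feedback genes Spry4 (1.61 and 1.48) and Spry2 (1.24 and 1.02) were higher in both, as were Id1 (2.25 and 2.47), Id2 (1.14 and 1.79) and Gadd45a (1.54 and 2.07). The inflammatory genes Ccl11 (-5.79 and -4.34), Ccl2 (-4.29 and -1.99), Il6 (-2.65 and -2.69), Tnfaip6 (-3.74 and -2.20) and Vcam1 (-2.92 and -2.17) were lower in both. The list counts for the wild-type library were 3 higher and 3 lower of 31 immediate early factors, 3 and 0 of 14 feedback genes, 2 and 1 of 21 heat shock genes, 1 and 0 of 17 stress genes and 2 and 9 of 25 inflammatory genes. For the reporter library they were 3 and 3 of 26, 2 and 1 of 12, 2 and 1 of 21, 2 and 1 of 17, and 0 and 8 of 26, in the same order of lists.

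The crypt-bottom fibroblast classes were also set against each other, in a comparison added after the levels were seen. In the wild-type library 4 of 10 members were past 2-fold higher in CBFs2-like than in CBFs1-like cells and 0 were lower, beside 5.30% higher and 3.63% lower of 9621 genes. Egr1 averaged 28.3 ± 24.0 in CBFs2-like and 8.55 ± 7.71 in CBFs1-like cells, a log2 ratio of 1.73, with interquartile ranges of 10 to 42 and 3 to 12. Atf3 had 2.11 (3.35 ± 3.92 against 0.769 ± 1.43), Nr4a1 1.51 (2.44 ± 2.74 against 0.848 ± 1.31) and Fosb 1.09 (5.53 ± 6.15 against 2.59 ± 3.29). With the difference of mean ln(1 + value) in place of the ratio 2 of the 4 stayed past 2-fold, since Nr4a1 then had 0.78 and Fosb 0.76. Fos had 0.91, Junb 0.74, Ier2 0.70, Jun 0.17 and Ier3 0.03. Hspa1a alone had a lower mean, with 5.64 ± 6.50 against 7.93 ± 8.06 and a ratio of -0.49, while its neighbour Hspa1b had 5.66 ± 5.81 against 5.57 ± 6.29.

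In the reporter library the same classes were compared. Hspa1a was past 2-fold lower in CBFs2-like cells (2.94 ± 4.67 against 7.39 ± 6.25, log2 ratio -1.32), 1 of 10 members beside 3.44% of 5908 genes, and 0 of 10 were past 2-fold higher beside 4.54%. Nr4a1 had 0.83 (1.20 ± 1.87 against 0.669 ± 1.22), Egr1 0.77 (8.67 ± 6.38 against 5.06 ± 5.10), Fosb 0.73, Atf3 0.59 and Fos 0.37. Ier2 was at 0.00, Junb at -0.04, Jun at -0.32 and Ier3 at -0.34. Of the 10 members 7 had the same direction in both libraries, against 74.2% of 5778 genes. The 3 with opposite directions were Jun, Junb and Ier3. Hspa1b averaged 1.27 ± 1.98 in CBFs2-like and 1.80 ± 2.13 in CBFs1-like cells of the reporter library.

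The lists of related genes differed in this contrast. The immediate early factors had 10 higher and 2 lower of 31 in the wild-type library (median 0.72, all genes 0.02) and 7 and 2 of 29 in the reporter library (median 0.47, all genes -0.01). Myc had log2 ratios of 2.18 and 2.01 and Egr3 1.49 and 1.10, while Ctgf had -1.87 and -1.68. Dusp5, a nuclear phosphatase that acts on ERK, had 1.48 and 1.24, and the feedback list gave 4 and 0 of 14 and 2 and 0 of 12. The stress list gave 4 and 0 of 17 and 3 and 0 of 16, with Cdkn1a at 1.69 and 1.01 and the metallothionein gene Mt2 at 1.34 and 1.06. The heat shock list gave 1 and 0 of 21 and 0 and 0 of 20, the 1 being the co-chaperone Bag3 at 1.71. In the inflammatory list 6 were higher and 4 lower of 26, and 5 and 5 of 27, with Ccl7 at 2.21 and 2.00 and Ccl2 at 2.08 and 1.06 higher, and Vcam1 at -1.16 and -1.73 lower.

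CBFs2-like cells of the wild-type library had a lower median mitochondrial share than CBFs1-like cells (6.19% and 8.63%) and a similar number of genes (2711 and 2694). Without cells above 10% mitochondrial values the Egr1 means were 30.5 and 9.06 and the Atf3 means 3.70 and 0.760. The part of the mitochondrial share in the ratios was not tested. The 10 epithelial markers summed to 6.94 in CBFs2-like and 4.11 in CBFs1-like cells, and the 10 pericyte markers to 1.27 and 0.515. Their part in these ratios was not tested. In the reporter library the mitochondrial shares were 2.27% and 2.76% and the numbers of genes 1174 and 1262.

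**Figure D2:**
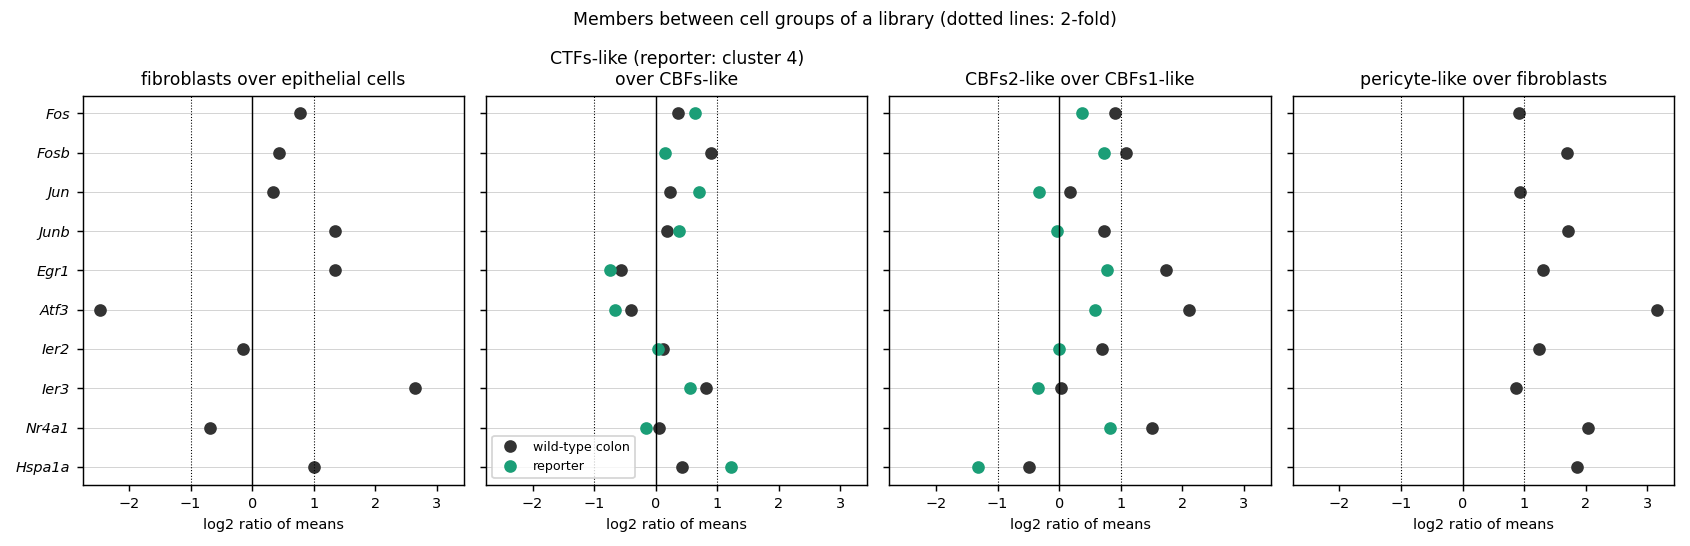
Log2 ratios of class means (x axis, 0.01 added to each mean) for the 10 members in 4 comparisons, with black points for the wild-type and green points for the reporter library and dotted lines at 2-fold. The pericyte-like panel lies wholly to the right of 0, Atf3 reaches -2.48 between fibroblasts and epithelial cells, and Hspa1a lies to the left of 0 between CBFs2-like and CBFs1-like cells in both libraries while Egr1 lies to the right.

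Over single fibroblasts the members went together, and the pairs with Hspa1a had lower medians. Correlations of ln(1 + corrected count) over cells are given as a description, since the cells share their library and depth. The fibroblast classes were pooled for them, and the part of differences between classes was not tested. The median Pearson r over the 45 pairs was 0.34 in 2519 wild-type fibroblasts and 0.35 in 4244 reporter fibroblasts. The tightest wild-type pairs were Fos with Junb (0.62), Fos with Egr1 (0.62) and Junb with Egr1 (0.62), and the tightest reporter pairs Junb with Egr1 (0.57) and Fosb with Egr1 (0.57). The 36 pairs without Hspa1a had medians of 0.38 and 0.39. The 9 pairs with Hspa1a had medians of 0.23 and 0.06, and in the reporter library Hspa1a with Egr1 had -0.13. In wild-type fibroblasts r ran from 0.08 to 0.33 with Hspa1a and from 0.19 to 0.62 without it, so these ranges overlapped.

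Jun had the highest r with Hspa1a of the members in both libraries, at 0.33 and 0.22. Hspa1a went more closely with its neighbour Hspa1b, with an r of 0.52 in wild-type fibroblasts, 0.70 in epithelial cells, 0.81 in pericyte-like cells and 0.29 in reporter fibroblasts. Restricting fibroblasts to the middle tertile by genes per cell left the pair medians at 0.35 in 841 wild-type and 0.38 in 1416 reporter cells. No member followed the number of genes per cell closely, with r from -0.04 to 0.09 in the wild-type and from -0.24 (Egr1) to 0.15 (Ier3) in the reporter library. With the mitochondrial share all 10 had a negative r in wild-type fibroblasts, the lowest being -0.25 for Egr1.

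**Figure D3:**
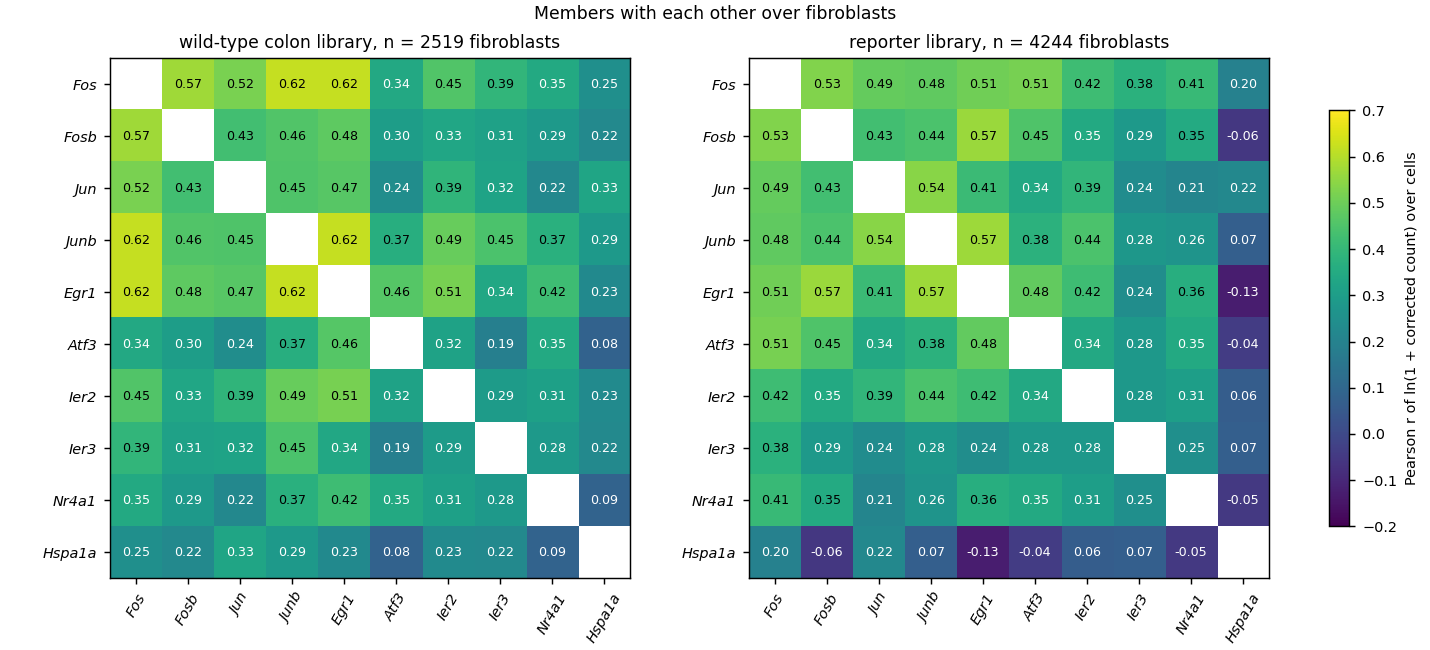
Pearson r of ln(1 + corrected count) over fibroblasts for each pair of members, in 2519 wild-type (left) and 4244 reporter (right) cells, with colour and printed number giving r and the diagonal left blank. The Hspa1a row and column are dark in both panels and reach -0.13 with Egr1 in the reporter library, while Fos, Junb and Egr1 form the brightest block in the wild-type library at 0.62.

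Among genes outside the 10, those most like the mean of the members over fibroblasts came largely from the related lists. Hes1, Sertad1 and Srsf2 in the wild-type library were of no list, and Nfkbia, Cxcl1 and Irf1 in the reporter library were of the inflammatory list. In wild-type fibroblasts the leading 10 of 9601 genes included Dusp1, a phosphatase that switches off MAP kinases (r 0.61), Gadd45b (0.54), Zfp36, which destabilises cytokine mRNAs (0.54), Btg2 (0.52), Hes1 (0.48), Sertad1 (0.47), Jund (0.47), Srsf2 (0.44) and Socs3 (0.44). In reporter fibroblasts the leading 10 of 6507 were Dnajb1 (0.58), the NF-kB inhibitor gene Nfkbia (0.57), Btg2 (0.57), Ppp1r15a (0.54), Dusp1 (0.53), Socs3 (0.51), Cxcl1 (0.51), Hspa8 (0.51), Zfp36 (0.49) and Irf1 (0.47). Dusp1, Zfp36, Btg2 and Socs3 were in both sets of 10. The median over all genes was 0.00 and -0.01. The wider lists had medians between 0.13 for the inflammatory and 0.20 for the immediate early genes in the wild-type library. In the reporter library the lowest median was 0.10 for the feedback genes, and the immediate early and inflammatory genes both had 0.17. Over the 14 wild-type class means the order of the members' mean was most like that of Rbbp6 (Spearman rho 0.96), Fam208a (0.93), Rlim (0.92), Kansl1l (0.92) and Brd2 (0.91), which are broadly expressed nuclear genes.

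Within reporter fibroblasts 5 members had a higher mean at each step of Cxcl2, and the other 5 did not. Cxcl2 was 0 in 3678 of the 4244 cells, 1 in 181, 2 to 4 in 165, 5 to 9 in 110 and 10 or more in 110. Median total corrected counts per cell were 3064.5, 3392, 3415, 3349 and 3431 in that order, and their part in the means was not tested. Over these steps the mean of Ier3 ran 1.28, 1.5, 1.79, 2.47 and 2.87, that of Atf3 1.97, 2.38, 3.19, 3.49 and 4.02, and that of Ier2 2.77, 2.99, 3.40, 3.95 and 4.44. These 3, and Fos and Junb, are the 5 that were higher at every step than at the one before. Fos ran 16.5, 18.3, 22.3, 22.4 and 25.5, and Junb 9.06, 9.69, 10.3, 10.7 and 12.7.

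The remaining members were less even. Nr4a1 was flat up to a Cxcl2 of 2 to 4 (0.901, 0.818 and 0.921) and then 1.13 and 1.68. Fosb had 2.46, 2.18, 3.40, 3.62 and 3.80, Egr1 5.20, 4.84, 7.17, 6.38 and 7.67, and Jun 7.67, 7.93, 8.76, 7.75 and 10.4. Hspa1a had 7.97, 7.46, 6.81, 8.48 and 7.45, with no order. The interquartile ranges of every member overlapped between all steps, for instance 0 to 2 at the lowest and 1 to 4.75 at the highest step of Ier3.

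Cells with a Cxcl2 of 5 or more (220 cells) were then set against cells at 0. Ier3 was past 2-fold higher (2.67 ± 2.53 against 1.28 ± 2.00, log2 ratio 1.06), 1 of 10 members beside 1.22% of 6651 genes, and 0 of 10 were past 2-fold lower beside 0.481%. This call was lost, and 0 members were past 2-fold, in 4 other settings, in which the ratio of Ier3 lay between 0.67 and 0.98. Atf3 had 0.93 (3.75 ± 4.28 against 1.97 ± 3.17), Nr4a1 0.63, Ier2 0.59, Fosb 0.59, Fos 0.54, Egr1 0.43, Junb 0.36 and Jun 0.24. Hspa1a was at 0.00, with 7.97 ± 9.03 against 7.97 ± 8.50. The member median was 0.56 and that of all genes 0.11.

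**Figure D4:**
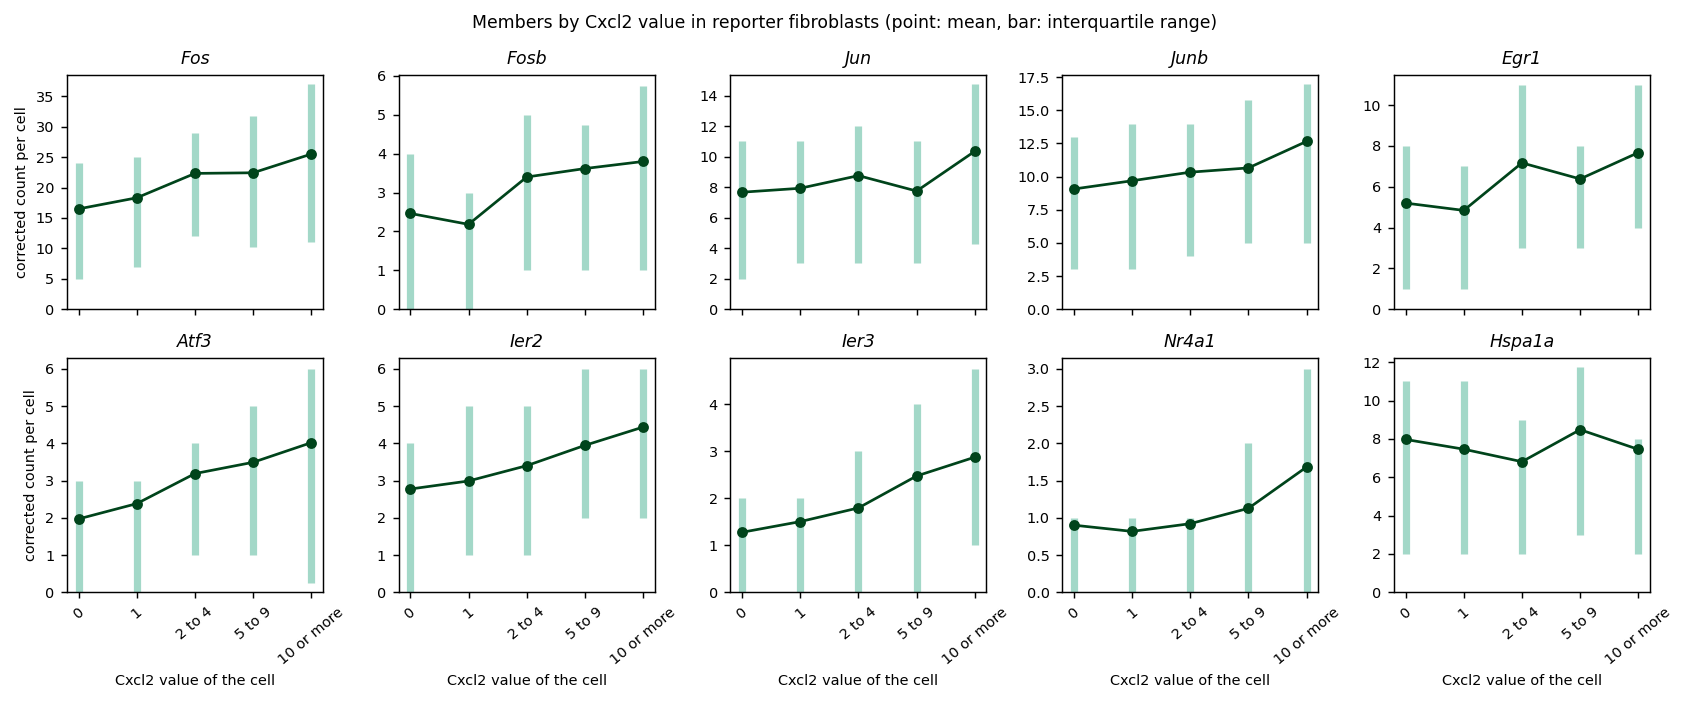
Mean corrected count per cell of each member (points joined by a line) and interquartile range over cells (bars) in reporter fibroblasts at 5 steps of Cxcl2, from 0 (3678 cells) to 10 or more (110 cells), each panel on its own linear axis. Ier3 runs from 1.28 to 2.87 and Atf3 from 1.97 to 4.02, Hspa1a has no order, and the bars overlap in every panel.

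The cell groups were unequally represented in this contrast, and the part of that in the pooled ratios was not tested. At a Cxcl2 of 5 or more 44.1% of the cells were CBFs1-like, 32.7% of the Spock3 cluster, 13.2% of the Agt cluster, 5.45% of cluster 4 and 4.55% CBFs2-like, against 35.7%, 11.4%, 17.8%, 13.1% and 22.0% at a Cxcl2 of 0. The Spock3 cluster, whose leading genes include Cxcl5, Cxcl9 and Cxcl2, had a Fos mean of 28.5 ± 19.7 and an Atf3 mean of 3.71 ± 4.67, the highest of the reporter clusters. Within CBFs1-like cells, 97 against 1313, 4 members were past 2-fold higher, beside 3.12% of 5768 genes in those cells, with log2 ratios of 1.15 for Nr4a1, 1.13 for Ier3, 1.12 for Fosb and 1.04 for Atf3. Egr1 had 0.91, Junb 0.73, Fos 0.55, Ier2 0.48, Jun 0.39 and Hspa1a -0.54, with a median of 0.01 over all genes.

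Within the Agt cluster (29 against 655 cells) all 10 ratios lay above 0, from 0.08 for Hspa1a to 0.95 for Ier2, with 0.19 for the median gene. Within the Spock3 cluster (72 against 418 cells) they were smaller, from 0.06 for Fosb and Jun to 0.44 for Ier2 and 0.58 for Ier3, with 0.00 for the median gene. CBFs2-like cells and cluster 4 had only 10 and 12 cells at 5 or more, and no ratio was formed. The 9 members other than Hspa1a lay above the median gene in each of the 3 groups, and Hspa1a lay below it in 2 of them. Fosb and Jun at 0.06 and Nr4a1 at 0.10 were close to the median gene in the Spock3 cluster. The share of all genes above the median in all 3 groups was not computed, and the groups are cells of 1 library.

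The related lists were set beside these ratios. As the lists were chosen with earlier results of these data known, the inflammatory count is no independent test of a rise with Cxcl2. Cxcl5, Cxcl9 and Cxcl2 are also among the leading genes of the Spock3 cluster. The part of that cluster in the list ratios was not tested. Of the inflammatory genes other than Cxcl2 12 of 27 were past 2-fold higher and 0 lower, with a median of 0.95, led by the chemokine genes Cxcl5 at 2.40, Cxcl9 at 2.17 and Ccl2 at 1.71, with Saa3 at 1.66 and Tnfaip3 at 1.63. Of the wider immediate early factors 2 of 27 were higher, Egr2 at 1.22 and Fosl1 at 1.04, and 25 of 27 had ratios above 0 (median 0.35). Of the feedback genes 0 of 13 were past 2-fold and 13 of 13 lay above 0 (median 0.22). Over all genes 4267 of 6651 lay above 0, with a median of 0.11, and 1.22% were past 2-fold higher. Of the stress genes 1 of 17 was past 2-fold, Gadd45b at 1.02 (median 0.46), and of the heat shock genes 0 of 21 (median 0.18). Cxcl2 itself had an r of 0.17 with the mean of the members over reporter fibroblasts.

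Cells with a Cxcl2 of 5 or more had a median of 1504 genes against 1359 at 0, and 2.19% against 2.34% mitochondrial values. Their 11 immune markers summed to 0.409 per cell against 0.220, with 1 marker past 2-fold higher and 0 lower. Of these markers Ptprc was at 0 in both groups and Cd3e, Cd79a and Coro1a were at 0 in the cells with high Cxcl2 only, and the other 7 were above 0 in both. The part of these cells' immune signal in the member ratios was not tested. The 12 CTF markers summed to 1.61 and 2.37, and the 10 smooth muscle markers to 1.53 and 2.72. Within the middle tertile by genes per cell 3 members were past 2-fold higher, beside 4.04% of 6117 genes in those cells, with Atf3 at 1.31 and Nr4a1 at 1.13 beside Ier3.

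The wild-type library could not repeat this split. Of its 2519 fibroblasts 26 had a Cxcl2 of 1 or more and 3 of these 5 or more, so no ratio was formed. The 26 cells had means of 18.3 ± 17.4 for Fos, 4.15 ± 4.97 for Ier3, 1.73 ± 2.20 for Atf3 and 1.15 ± 1.99 for Nr4a1. The 2493 cells at 0 had 20.3 ± 17.9, 4.43 ± 5.93, 1.49 ± 2.60 and 1.40 ± 2.07. These values differed by far less than the spread over cells.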

How the data were processed

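Cells of the colon were profiled by droplet single-cell RNA sequencing. Per the labels and the study's methods, the authors aligned reads with Cell Ranger to mm10 and normalized each library apart with SCTransform in Seurat 3.1 under R 3.6.2. The values used are a score, whole-number corrected counts per gene and cell as deposited by the authors, and their natural log, ln(1 + value), as deposited. The corrected counts are not the UMI counts first read, so no count model was run and the depth sequenced cannot be recovered.

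Each library was clustered with Seurat 5.3.0 in R 4.3.3 from 3000 variable features, less the members and gene lists (2915 and 2893 used), with 30 principal components and resolutions of 0.45 and 0.3. Clusters were named from 21 marker lists, and the naming rule was revised after clusters and member values had been seen. Means, ratios and correlations were computed in python 3.11.15 with numpy 2.4.6 and scipy 1.17.1. A ratio needed 20 cells a group and a mean of 0.05 over both groups, with 0.01 added to each mean, and 2-fold was the size counted. The calculation was tested on simulated data. Of the wider lists, the 5 highest and 5 lowest ratios past 2-fold were open to naming, and Hspa1b was added after its values were seen. Scrublet, run in scanpy 1.11.5 with an expected rate of 0.06, marked 95 wild-type and 5 reporter cells, and these were kept. Members and lists were chosen with earlier results of these data known. Gene models are GENCODE M21 on GRCm38. One gene that the naming rule selected is not reported here.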

Additional observations from a re-analysis of the deposited data

How the results depend on the processing

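No paired analysis was possible because each group is 1 library of pooled mice and no test was made. Of 700 member ratios recomputed under the alternatives 666 stayed on their side of 2-fold, 27 came to pass it, 7 no longer did, and 0 of those past it changed sign. Of 146 counts of members past 2-fold 17 moved. With Cxcl2 of 5 or more against 0, the 1 member higher became 0 with values summed and scaled to the total, with cells thinned to 1000, with the difference of mean ln(1 + value) and with Cxcl2 at 1 or more. It became 2 with Cxcl2 at 10 or more, 3 in the middle tertile by genes per cell and 4 in CBFs1-like cells alone. In reporter cluster 4 over CBFs-like cells, 1 higher and 0 lower became 2 and 1 with 15 principal components and with members and lists kept in the variable features, and 1 lower at resolution 0.8. In CBFs2-like over CBFs1-like cells, 4 higher in the wild-type library became 2 with the difference of mean ln(1 + value). In the reporter library 0 higher became 1 with cells thinned to 1000, with 15 principal components and at resolution 0.8, where 1 lower became 2. The cause was not tested. That comparison gave no value with members kept in, since no cluster was then CBFs1-like. Alternatives to the wild-type Cxcl2 split (3 cells) were not run, nor the leaving out of 5 marked reporter doublets, too few for the caller to have worked, and the 10% mitochondrial limit removes no reporter cell. One library a group, rather than the number of cells, limits every statement.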
